A study of Zea mays with 4 samples.

Results

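The gamma, beta and delta zeins are the storage proteins of the maize (Zea mays) endosperm that lie outside the large alpha-zein family. The 5 genes described here were the 27-kDa gamma-zein gz27 (GRMZM2G138727), the 16-kDa gamma-zein gz16 (GRMZM2G060429), the 50-kDa gamma-zein gz50 (GRMZM2G138689), the 15-kDa beta-zein bz15 (GRMZM2G086294) and the 18-kDa delta-zein dzs18 (GRMZM2G100018). They were taken by gene ID from the 39625 IDs of the count tables, and each ID carried the matching zein symbol in the reference gene table. Transcripts were measured by RNA sequencing of whole kernels 14 days after pollination from field-grown plants. Kernels of wild type (WT) plants were compared with kernels of plants labelled zmknl1 mutant, a label that names the gene for the kinetochore scaffold protein KNL1, with 2 libraries per genotype. The replicates came from separate ears; the sources used here do not give the allele, the inbred line or the number of kernels per library.

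Zeins are made on the rough endoplasmic reticulum of endosperm cells and are packed there into protein bodies. Cysteine-rich gamma and beta zeins form the outer layer of a protein body and are cross-linked by disulfide bonds, while alpha and delta zeins fill its core. The bZIP factor Opaque2 and the DOF factor PBF, which binds the prolamin box, are the best known activators of zein genes.

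Reads counted in genes came to 16595289 to 22725030 per library. WT replicate 2 stood apart from the other libraries: 24.3% of its counts fell on the 10 most abundant genes, against 4.83 to 7.29% elsewhere. Reads aligned to several places, which the counting sets aside, made up 23.9% of its total and 10.9 to 13.5% of the others. Values below are counts per 1000000 counted reads (CPM) on library sizes scaled by TMM, whose factor was 0.708 for WT replicate 2 and 1.10 to 1.16 for the other libraries. Counts of a zein may be lowered by reads it shares with similar genes, and CPM carries no length correction, so levels are compared between libraries and not between genes. All 5 genes passed the filter on low counts and had counts in every library.

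The 5 zein genes all measured lower on average in zmknl1 than in WT, by 2.09-fold for gz50 to 3.74-fold for gz16, but none passed the edgeR quasi-likelihood test after adjustment over all 19519 tested genes. That test called 0.0205% of all tested genes. For gz16, bz15 and dzs18 both zmknl1 libraries lay below both WT libraries, while the genotypes overlapped for gz27 and gz50. Of all tested genes, 20% lay below in this way. Without WT replicate 2 the median log2 fold change of the 5 genes was -0.56, against -1.83 with all libraries, and gz50 turned to 0.47. In whole kernels, fewer endosperm cells and less zein RNA per cell cannot be told apart.

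The gamma-zein gz27, which takes part in starting protein bodies, measured 248 and 673 CPM in WT replicates 1 and 2 against 44.2 and 290.1 CPM in zmknl1 replicates 1 and 2. Its low value was that of zmknl1 replicate 1, and zmknl1 replicate 2 lay between the WT libraries. The means were 461 ± 301 CPM for WT against 167 ± 174 CPM for zmknl1 (SD, n = 2 each), and the log2 fold change of -1.46 ± 0.87 (SE) had an edgeR adjusted p of 0.6495.

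The smaller gamma-zein gz16, a cysteine-rich relative of gz27, measured 556 and 2250 CPM for WT against 306 and 444 CPM for zmknl1. WT replicate 2 was far above the other libraries, and WT replicate 1 was the next highest. The means were 1403 ± 1198 and 375 ± 98.1 CPM, and the log2 fold change was -1.90 ± 0.70, with an edgeR p of 0.0293 before and 0.412 after adjustment.

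The largest gamma-zein, gz50, measured 1610 and 7634 CPM for WT against 3166 and 1260 CPM for zmknl1. Here zmknl1 replicate 1 was the second highest library, above WT replicate 1, an order that none of the other 4 genes showed. The means were 4622 ± 4259 and 2213 ± 1347 CPM, with a log2 fold change of -1.06 ± 0.85 and an edgeR adjusted p of 0.761.

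The beta-zein bz15, a sulfur-rich protein of the protein body periphery, measured 4006 and 7638 CPM for WT against 1082 and 2068 CPM for zmknl1. Both zmknl1 values were well under the lower WT value. The means were 5822 ± 2568 and 1575 ± 697 CPM, a log2 fold change of -1.89 ± 0.64 with an edgeR p of 0.0211 before and 0.379 after adjustment. DESeq2, the tool named by the submitters, called it lower (log2 fold change -1.88 ± 0.51, adjusted p = 0.0117). With both zmknl1 values under both WT values, its DESeq2 log2 fold change had to stay below 0 whichever library was left out. Dropping WT replicate 2 moved it to -1.36, and dropping zmknl1 replicate 1 moved it to -1.49. It was larger in size, at -2.30, when WT replicate 1 was dropped, and reached -2.42 when zmknl1 replicate 2 was. These fits cannot decide whether the call holds, because the spread of the lone library of a genotype is taken from the other pair.

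The methionine-rich delta-zein dzs18 had few reads, with 343 and 576 counts in WT and 172 and 262 in zmknl1, or 15.05, 49.1, 7.52 and 10.5 CPM. WT replicate 2 was again the highest library and the zmknl1 libraries were the lowest. The means were 32.05 ± 24.04 and 8.99 ± 2.07 CPM, with a log2 fold change of -1.83 ± 0.63 and an edgeR p of 0.0225 before and 0.383 after adjustment.

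**Figure D1:**
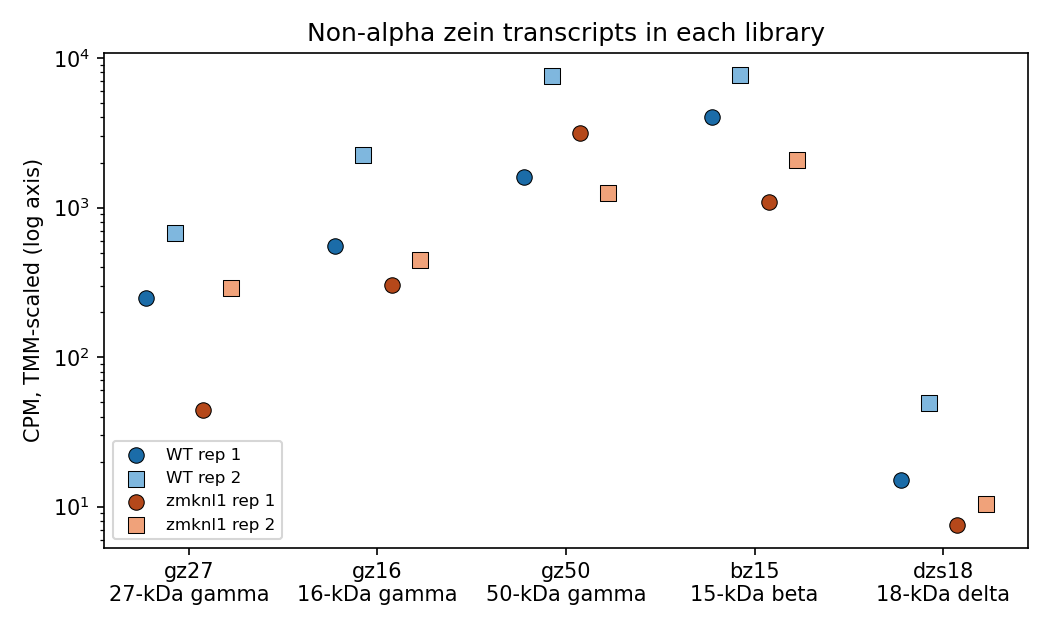
TMM-scaled CPM on a log axis for each of the 5 genes, with 1 point per library (blue WT, orange zmknl1; circles replicate 1, squares replicate 2). WT replicate 2 is the highest library for every gene, gz27 drops to 44.2 CPM for zmknl1 replicate 1, and gz50 is the gene whose zmknl1 replicate 1 (3166 CPM) exceeds WT replicate 1 (1610 CPM).

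Over the whole table edgeR called 4 genes (0.0205%) at an adjusted p under 0.05, and 0 of the 5 zeins. At an unadjusted p under 0.05, 3 zeins (gz16, bz15 and dzs18) were lower in zmknl1, where 5.3% of all tested genes were. DESeq2 called 1 of the 5 lower, bz15, against 2.03% of the genes it adjusted (1.59% were called higher), and gz16 narrowly missed (adjusted p = 0.0535). limma-voom called 0 zeins and 0 genes in all, with an unadjusted p under 0.05 for 4 of the zeins and for 2183 genes. The 3 zeins whose zmknl1 libraries both lay below both WT libraries compare with 20% of all tested genes, and they were the same 3 genes under median-ratio, total-count and reduced-library scaling. The median log2 fold change was -1.83 for the 5 zeins and 0.01 for all tested genes. With 2 libraries per genotype, an exact two-sided permutation test of any single gene cannot go below a p of 0.333.

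The WT libraries differed for every one of the 5 zeins, and always in the same direction, with WT replicate 2 higher. The ratio of replicate 2 to replicate 1 was 4.74 for gz50 (95% exact binomial interval 4.684 to 4.799), 4.04 for gz16 (3.96 to 4.13), 3.26 for dzs18 (2.85 to 3.74), 2.71 for gz27 (2.62 to 2.81) and 1.91 for bz15 (1.89 to 1.92). These intervals cover counting error only, and a single library on each side allows no test. The intervals of neighbours in this order did not overlap. More than a 2-fold difference between the WT libraries was found for 4 of the 5 genes and for 39.5% of all tested genes, and more than 4-fold for 2 of the 5, gz50 and gz16, and for 14.7% of all tested genes.

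Between the zmknl1 libraries the 5 genes did not share a direction. Replicate 2 was 6.57 times replicate 1 for gz27 (6.15 to 7.02), 1.91 times for bz15 (1.88 to 1.94), 1.45 times for gz16 (1.41 to 1.50) and 1.39 times for dzs18 (1.14 to 1.69), whereas gz50 was 2.51-fold higher in replicate 1 (2.48 to 2.55). Of all tested genes, 24% differed by more than 2-fold between the zmknl1 libraries, as gz27 and gz50 did, and 7.5% by more than 4-fold, as gz27 did. A ratio as large as that of gz27, in either direction, was found for 4.2% of tested genes. In the gene order of the later assembly Zm-B73-REFERENCE-NAM-5.0, gz27 and gz50 are neighbours on chromosome 7 with 0 genes listed between them, yet their counts moved in opposite directions between these libraries.

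**Figure D2:**
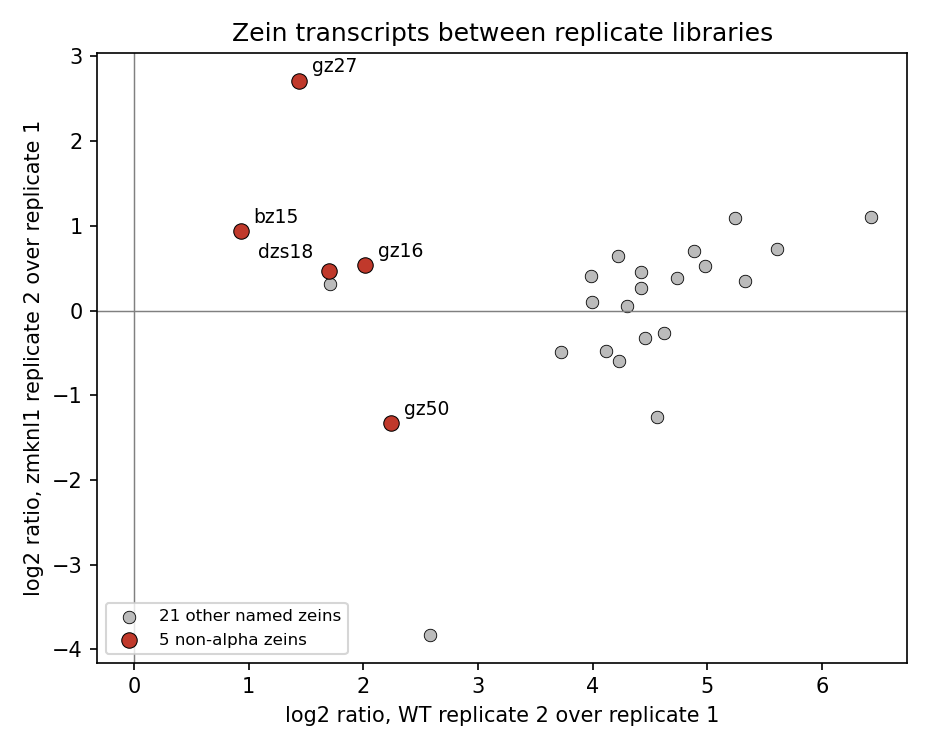
Each point is a gene, placed by the log2 ratio of WT replicate 2 to replicate 1 (x axis) and of zmknl1 replicate 2 to replicate 1 (y axis), with 1 count added to each value, for the 5 non-alpha zeins (red) and 21 alpha-zeins (grey). All points lie to the right of 0, most alpha-zeins lie farther right than the 5 genes, and gz27 (2.71) and gz50 (-1.33) stand at opposite ends of the y axis among the 5.

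The make-up of the non-alpha zein counts does not depend on library scaling, and it differed most in zmknl1 replicate 1. There gz50 took 68.8% of the counts of the 5 genes (95% exact binomial interval 68.5 to 69.0%), against 25.0 and 41.8% in the WT libraries and 30.9% in zmknl1 replicate 2. The share of bz15 was 23.5% in that library, against 62.3 and 41.9% in WT and 50.8% in zmknl1 replicate 2. The gz27 share was 3.85 and 3.69% in WT, 0.959% in zmknl1 replicate 1 and 7.12% in zmknl1 replicate 2, so the zmknl1 libraries lay on either side of both WT libraries. Shares of gz16 ran from 6.63 to 12.3% and those of dzs18 from 0.163 to 0.269%, and the genotypes overlapped for both.

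**Figure D3:**
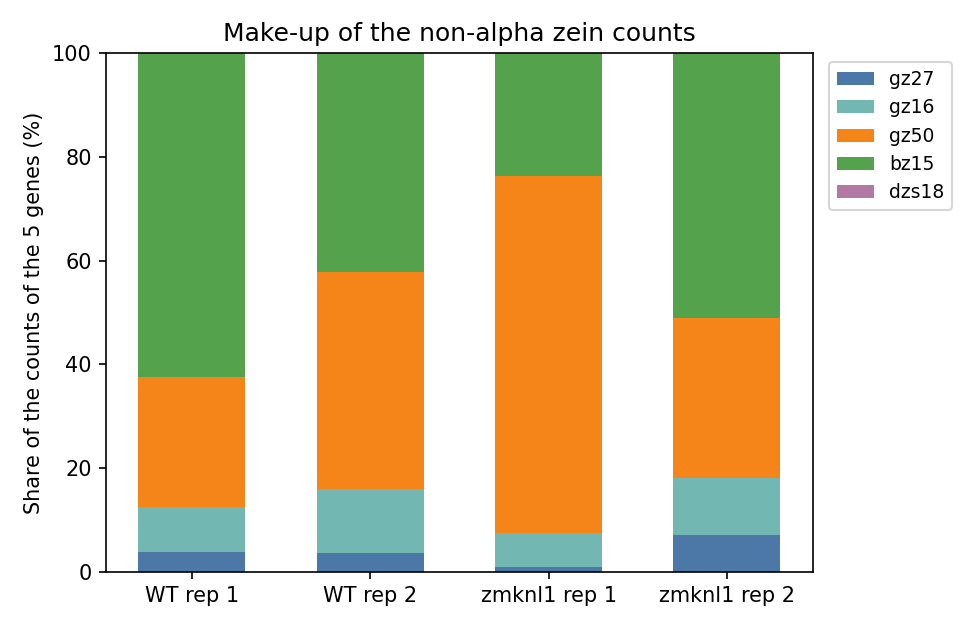
Stacked bars give the share of each gene in the summed counts of the 5 genes, in percent, for each library; the dzs18 share, at most 0.269%, is too thin to be seen. In zmknl1 replicate 1 the gz50 share is 68.8% and the bz15 share 23.5%, whereas in the other libraries bz15 takes 41.9 to 62.3%.

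Pairs of the 5 genes differed in how closely their counts kept a fixed ratio. There were 71.7 gz50 counts per gz27 count in zmknl1 replicate 1, against 6.49 and 11.3 in WT and 4.35 in zmknl1 replicate 2, a 16.5-fold range and the widest of the 10 pairs. The narrowest range was that of gz16 and dzs18, genes of different zein classes on chromosomes 2 and 6. There were 37.0 gz16 counts per dzs18 count in WT replicate 1 (95% exact binomial interval 33.2 to 41.3), 45.9 in WT replicate 2 (42.2 to 49.9), 40.6 in zmknl1 replicate 1 (34.9 to 47.5) and 42.5 in zmknl1 replicate 2 (37.6 to 48.2). The range was 1.24-fold; the median range of a ratio to gz16 over 17818 tested genes with counts in every library was 8.50-fold, and 1 gene other than dzs18 kept to gz16 as closely or closer. This pair was picked out after its values were seen. The genotypes overlapped in the ratios of all 10 pairs.

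The size of the genotype difference depended on which library was left out. Without WT replicate 2 the edgeR log2 fold change was -0.56 ± 0.78 for gz27, -0.56 ± 0.45 for gz16, -0.73 ± 0.57 for dzs18 and -1.34 ± 0.51 for bz15, and that of gz50 turned to 0.47 ± 0.59. The median over the 5 genes was then -0.56. Without WT replicate 1 the median was -2.29, with -2.59 ± 0.48 for gz16 and -2.45 ± 0.47 for dzs18. In that fit bz15 had -2.29 ± 0.54, gz27 -2.02 ± 0.74 and gz50 -1.79 ± 0.59. For gz27 the value was -0.67 ± 0.87 without zmknl1 replicate 1 and -3.39 ± 0.98 without zmknl1 replicate 2. In these fits the lone library of a genotype was assumed to vary like the other pair.

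**Figure D4:**
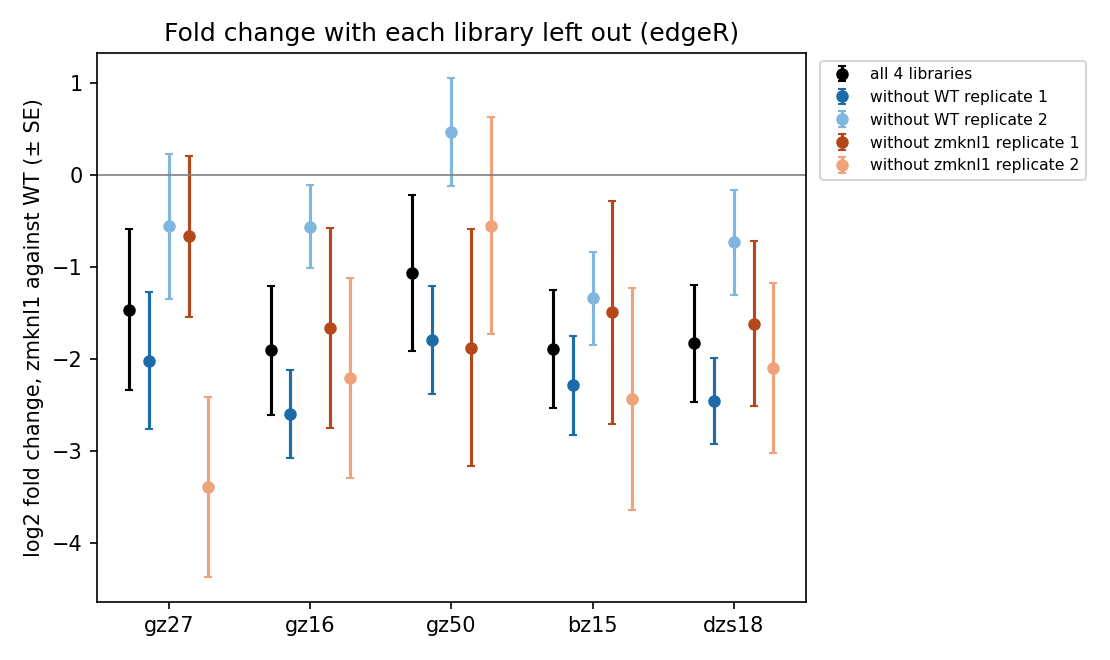
Points are edgeR log2 fold changes of zmknl1 against WT for each gene, with bars of 1 SE on each side, for all 4 libraries (black) and with each library left out (colours). Without WT replicate 2 every value moves toward or past 0, to 0.47 for gz50, while bz15 has the lowest value of that fit, -1.34.

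Alpha-zeins, which fill the core of the protein body, differed far more between the WT libraries than the 5 non-alpha genes did. Of the IDs counted, 21 others carried a zein symbol, all of alpha-zeins. Their ratio of WT replicate 2 to replicate 1 ran from 3.28 to 86.0 with a median of 21.5, and for 20 of the 21 it was larger than the 4.74-fold ratio of gz50. In 19 of the 21, both zmknl1 libraries lay between the WT libraries, with WT replicate 1 the lowest, an order found for 10.2% of all tested genes and 0 of the 5 non-alpha genes. The most abundant were z1A1_3/z1A1_4 (GRMZM2G059620, an ID that the table gives to both symbols), with 2910 and 77752 CPM for WT against 9140 and 11951 CPM for zmknl1, and z1C1_4 (GRMZM2G044625), with 2982 and 51686 CPM for WT against 8488 and 6121 CPM for zmknl1.

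The 5 non-alpha genes together took 0.711 and 1.29% of the counts in WT and 0.534 and 0.449% in zmknl1, while the 21 alpha-zeins took 1.86 and 23.7% in WT and 5.90 and 5.65% in zmknl1. There were 0.381 non-alpha counts per alpha-zein count in WT replicate 1, 0.0545 in WT replicate 2, and 0.0906 and 0.0795 in zmknl1. Without WT replicate 2 the alpha-zein median log2 fold change was 1.86, with 0 of 21 below 0, where the 5 non-alpha genes had a median of -0.56 with 4 of 5 below 0; with all libraries the medians were -1.53 and -1.83. Reads aligned to several places were most frequent in WT replicate 2, and their part in the zein counts was not tested.

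The regulators of zein genes differed in their order over the libraries. The activator gene o2 (GRMZM2G015534) measured 502 and 1188 CPM for WT against 347 and 471 CPM for zmknl1, with both zmknl1 libraries below WT and a log2 fold change of -1.05 ± 0.54 (adjusted p = 0.587). The prolamin box factor gene pbf1 (GRMZM2G146283) measured 22.3 and 158 CPM for WT against 77.1 and 86.7 CPM for zmknl1 (adjusted p = 0.976), so that, as for most alpha-zeins, the zmknl1 libraries lay between the WT libraries. The gene for the O2 partner ohp2 (GRMZM2G007063) overlapped between genotypes at 22.5 to 40.6 CPM, the ID paired with ohp1 (GRMZM2G016150) had 0 counts in every library, and the ID paired with MADS47 (GRMZM2G099577) was low, at 0.395 and 0.596 CPM for WT against 1.31 and 3.59 CPM for zmknl1, with both zmknl1 libraries above WT (log2 fold change 2.31 ± 1.18, adjusted p = 0.588). Of the 4 tested regulators 1 was lower and 1 higher in both zmknl1 libraries, against 20 and 21.9% of all tested genes, and 0 were called by edgeR or DESeq2, where the shares over all genes (0.0205%, and 2.03% lower with 1.59% higher) leave little to be read from a list this short.

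Among genes of protein body assembly and of folding in the endoplasmic reticulum, 3 of 6 were lower and 1 was higher in both zmknl1 libraries. Of all tested genes, 20% were lower and 21.9% higher in this way. None was called by edgeR or DESeq2, which at the low shares of calls over all genes says little about so few; the assembly list also holds FL2 (GRMZM2G397687), which is among the 21 alpha-zeins. Floury1 (GRMZM2G094532), a protein body membrane protein gene, measured 165 and 155 CPM for WT against 48.9 and 81.5 CPM for zmknl1, a log2 fold change of -1.30 ± 0.41 (edgeR adjusted p = 0.354). O10 (GRMZM2G346263), which encodes a protein of the protein body, measured 307 and 133 CPM for WT against 122 and 88.8 CPM for zmknl1. Neither gene showed the high WT replicate 2 value of the zeins. The disulfide isomerase gene PDIL1-1 (GRMZM2G091481) measured 3002 and 4365 CPM for WT against 2095 and 1795 CPM for zmknl1 (adjusted p = 0.634), and crt2 (GRMZM2G358059), for the chaperone calreticulin, measured 289 and 288 CPM for WT against 556 and 508 CPM for zmknl1 (adjusted p = 0.508). The b-70 gene (GRMZM2G114793), for the chaperone BiP, overlapped between genotypes at 729 to 1347 CPM.

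Markers of kernel compartments also differed between the libraries. The 6 starchy endosperm genes, among them sh1 and wx1, were all lower in both zmknl1 libraries than in both WT libraries, with summed levels of 26339 and 49608 CPM for WT against 10780 and 15289 CPM for zmknl1. The 4 tested embryo markers of 6 listed were lower likewise, with sums of 2846 and 696 CPM for WT against 254 and 167 CPM for zmknl1, and glb2 was at 0 in both zmknl1 libraries and lec1 at 0 in all. The 5 transfer layer markers were all higher, with sums of 27.1 and 42.1 CPM for WT against 208 and 128 CPM for zmknl1, and ebe2 was at 0 in both WT libraries. Of the 3 tested aleurone markers of 4 listed, vp1 and IDDveg9 were lower and dek1 overlapped, with sums of 351 and 224 CPM for WT against 201 and 174 CPM for zmknl1, and c1 was at 0 in all. DESeq2 called 3 starchy endosperm, 3 embryo and 1 aleurone marker lower and 5 transfer layer markers higher, against 2.03 and 1.59% of all genes. By edgeR 0 markers were called, where 0.0205% of all tested genes were. An unadjusted edgeR p under 0.05 was found for 13 markers of the 4 lists and for 1999 of all 19519 tested genes. Both zmknl1 libraries lay below both WT libraries for 20% of all tested genes and above them for 21.9%. The part of these compartments in the zein values was not tested.

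Among 1765 other genes with a mean of at least 100 CPM, the 5 nearest in pattern to the average of the 5 zeins were found by Euclidean distance between centred log2(CPM + 1) profiles over the 4 libraries. They were GRMZM2G128658 (distance 0.302), GRMZM2G018820 (0.623), the sucrose synthase gene sh1 (GRMZM2G089713, 0.667), GRMZM2G080603 (grp1 in the gene table, 0.673) and o2 (0.683). The zeins themselves lay at 0.160 (dzs18), 0.276 (gz16), 0.654 (bz15), 1.48 (gz27) and 1.63 (gz50) from their own average. Of the other genes, 14.3% lay closer to that average than gz27 and 21.7% closer than gz50. sh1 measured 12632 and 30079 CPM for WT against 3229 and 7368 CPM for zmknl1. These likenesses rest on the same 4 libraries and are a description.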

How the data were processed

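Raw read counts per gene were deposited for 4 libraries of whole kernels, grouped by their titles. Per the submitters' processing notes and the design text, the authors used Trimmomatic 0.36 for trimming, HISAT2 2.0.1 for alignment to B73 RefGen_v3 and HTSeq for counting; the sources used here give neither its mode nor its strand setting, so reads of overlapping or antisense genes cannot be told apart. The 5 closing lines of each table, reads assigned to no gene, held 35.8 to 47.8% of the reads in a table and were left out.

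Genes passing the filterByExpr defaults (19519) were scaled with TMM and tested with the edgeR 4.0.16 quasi-likelihood F-test in R 4.3.3, two-sided, and p-values were adjusted over all of them by Benjamini-Hochberg at 0.05. Each SE is the size of the fold change divided by the root of F. DESeq2 1.42.0 and limma 3.58.1 (voom), run on the same filtered counts, other scalings, no filter, the replicate number as a block and left-out libraries were alternatives. "Reduced-library scaling" means library sizes without the 10 most abundant genes. Ratios between single libraries over all genes used 1 added count.

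Symbols came from the gene table of Zm-B73-REFERENCE-NAM-5.0, which is not the assembly of the counts and held 19059 of the 39625 IDs. Named were the 5 zeins, the listed regulators, assembly, folding and marker genes that the table paired with their symbols, the most abundant alpha-zeins and the 5 genes nearest in pattern. The zeins and the lists were chosen with earlier results of these data known.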

Additional observations from a re-analysis of the deposited data

How the results depend on the processing

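The number of genes that edgeR called, 4 with all libraries, was 5 when the 10 most abundant genes were left out of library sizes and 0 with total-count scaling (2097 at an unadjusted p under 0.05). It was 715 without a low-count filter, and 19 to 805 with 1 library left out (WT replicate 1 left out, 166; WT replicate 2, 805; zmknl1 replicate 1, 19; zmknl1 replicate 2, 35). DESeq2 called 679 and limma-voom 0. The cause of these differences was not tested.

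All 5 zeins kept their lower direction in zmknl1 under each tool, scaling and filter tried, and gz50 reversed without WT replicate 2. Its left-out values ran from -1.88 to 0.47. Those of gz16 ran from -2.59 to -0.56 and those of dzs18 from -2.45 to -0.73. Among fits of all libraries, calls that the main edgeR fit did not make appeared for bz15 in DESeq2 (-1.88). They also appeared without a low-count filter for gz16 (-1.90, edgeR adjusted p = 0.0256) and dzs18 (-1.83, 0.0393), and with the replicate block, given next. Some fits with 1 library left out called zeins too. Those fits cannot decide whether a call holds, because the spread of the lone library is taken from the other pair.

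With the replicate block, edgeR called 642 genes, among them gz27 (-1.85, adjusted p = 0.0108), gz16 (-1.60, 0.0347) and bz15 (-1.89, 0.00601). The labels do not say that equal numbers share an ear, a plot or a day, so the numbers were not taken as pairs. The replicate differences of the genotypes correlated with r = 0.251 across 19519 genes. Whether equal numbers share a factor was not tested.

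The median log2 ratio of the WT libraries over the 5 zeins, 1.70 with TMM, was 1.06 with total-count scaling and 1.39 without the 10 most abundant genes in the library sizes; 0 of the 5 reversed. These scalings moved the median log2 fold change of all tested genes from 0.01 to 0.34 and 0.22. DESeq2 fits with a library left out were added after the data were seen. Their log2 fold changes ran from -3.37 to -0.59 for gz27, -2.60 to -0.59 for gz16 and -1.87 to 0.44 for gz50. For bz15 they ran from -2.42 to -1.36 and for dzs18 from -2.46 to -0.76. The highest value of each gene came from the fit without WT replicate 2. With 172 to 576 counts, dzs18 had the fewest reads of the 5 zeins, and no zein was at 0. Its edgeR SE with all libraries, 0.63, was still the smallest of the 5.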
